A study of Mus musculus with 8 samples.

Results

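The genes that encode the constant regions of the immunoglobulin heavy chain were examined isotype by isotype in bone marrow B cells. The members were the 8 genes of this class in the deposited count table, Ighm, Ighd, Ighg1, Ighg2b, Ighg2c, Ighg3, Igha and Ighe, out of 54532 listed genes. Each was found by its Ensembl identifier, and 7 of the 8 had enough reads to be tested among 15305 genes, Ighe being the exception. RNA was sequenced from bone marrow B cells of mice after a sham operation (Sham) or after removal of the ovaries (OVX), a model of estrogen deficiency, with 3 libraries in each group. The labels give these samples only a cell type and the operation, and the genotype, strain and age of the mice behind these libraries are not given in the sources used here. The cells had been enriched on magnetic beads. Since no label says that the libraries came from separate mice, the p-values below measure the spread between libraries, which may be partly technical. A HIF-1α ChIP-seq sample and its input were not analysed here.

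An antibody heavy chain joins a variable region to a constant region, and the constant region sets the isotype. Immature B cells use Ighm, and mature naive B cells make IgM and IgD side by side by alternative processing of a single long transcript over Ighm and Ighd. After activation, class switch recombination deletes the DNA between the switch regions and places an IgG, IgE or IgA gene next to the variable region, and bone marrow is a long-term home of antibody-secreting plasma cells. A count on a constant gene does not separate the membrane form from the secreted form, nor a switched transcript from the germline transcript that an unswitched gene can make before recombination. In these bulk samples fewer cells of a type and less RNA per cell cannot be told apart.

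All 8 genes lie in a single cluster on chromosome 12 of GRCm38.p6 (RefSeq), between 113256204 and 113422730, a stretch of 166527 bases. In the direction of transcription, which runs towards lower coordinates, the order is Ighm, Ighd, Ighg3, Ighg1, Ighg2b, Ighg2c, Ighe and Igha. Ighm (chr12:113418826-113422730) and Ighd (chr12:113407535-113416324) are separated by only 2501 bases. The widest gap, 46302 bases, lies between Ighd and Ighg3 (chr12:113357442-113361232). Ighg1 (chr12:113326541-113330523), Ighg2b (chr12:113304314-113307933) and Ighg2c (chr12:113287389-113288932) follow, and Ighe (chr12:113269263-113273248) stands 9026 bases before Igha (chr12:113256204-113260236). These spans are those of the annotated genes, and reads are not assigned to an exon or intron in the count table. The IgG genes are close relatives in sequence, so reads could have been split between them in a way that cannot be checked, and their single values are uncertain to that extent.

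The libraries held between 23838775 and 33136701 counts. Markers that all B cells share (10 genes, among them Cd79a, Cd79b and Pax5) took 0.847% to 0.927% of the counts in every library. Libraries of Sham did not resemble each other closely. For several isotypes Sham replicate 1 lay nearer to OVX than to Sham replicates 2 and 3, and the results below are therefore given library by library, with the 3 values of a group always in the order of replicates 1, 2 and 3. No pair of libraries agreed within sampling noise.

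Ighm was by far the most abundant heavy chain constant gene. Its raw counts were 155292, 166820 and 157496 in Sham and 150958, 201579 and 218264 in OVX. The level in CPM, the counts scaled to a common library size with edgeR's TMM factors, was 6256 ± 347 in Sham and 6623 ± 483 in OVX (SD, n = 3 libraries per group here and below). The groups overlapped, and the highest library had 1.21 times the level of the lowest. Within groups only 20.1% of the tested genes varied less than Ighm on the log2 scale. OVX differed from Sham by 0.08 on the log2 scale (SE 0.0995), with an adjusted p of 0.851 (quasi-likelihood test of edgeR, p-values adjusted after Benjamini and Hochberg over all genes tested).

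Ighd was set apart by a single library. The gene had 10070, 28741 and 10739 counts in Sham and 13417, 12730 and 16921 in OVX. Sham replicate 2 reached 1012 CPM, whereas the other 5 libraries lay between 425 and 546 CPM. The mean was 623 ± 337 CPM in Sham and 503 ± 49.3 CPM in OVX. The log2 fold change was -0.31 (SE 0.329, adjusted p = 0.828 with edgeR), and without Sham replicate 2 it was 0.23, so that its direction rested on that library. Ighd counts per 100 Ighm counts were 17.2 in Sham replicate 2 and between 6.32 and 8.89 in the others. The log2 ratio of Ighd to Ighm, which needs no scaling between libraries, differed between OVX and Sham by -0.27 (two-sided exact permutation test over libraries, p = 0.8), and by 0.19 without Sham replicate 2.

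Igha, the gene of the mucosal isotype IgA, was the most abundant of the switched isotypes in every library and varied widely. Its counts were 7477, 59995 and 46073 in Sham and 22298, 8893 and 6288 in OVX. Sham replicates 2 and 3 were the highest, OVX replicate 1 came next, and Sham replicate 1 lay among the low OVX libraries. The level was 1427 ± 972 CPM in Sham and 471 ± 384 CPM in OVX, with an 11.1-fold distance between the lowest and the highest library. Igha thus varied more within groups than 99.4% of the genes tested. The log2 fold change was -1.60 (SE 0.781, unadjusted p = 0.0780, adjusted p = 0.811 with edgeR) and ranged from -2.50 without OVX replicate 1 to -1.21 without Sham replicate 2.

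**Figure D1:**
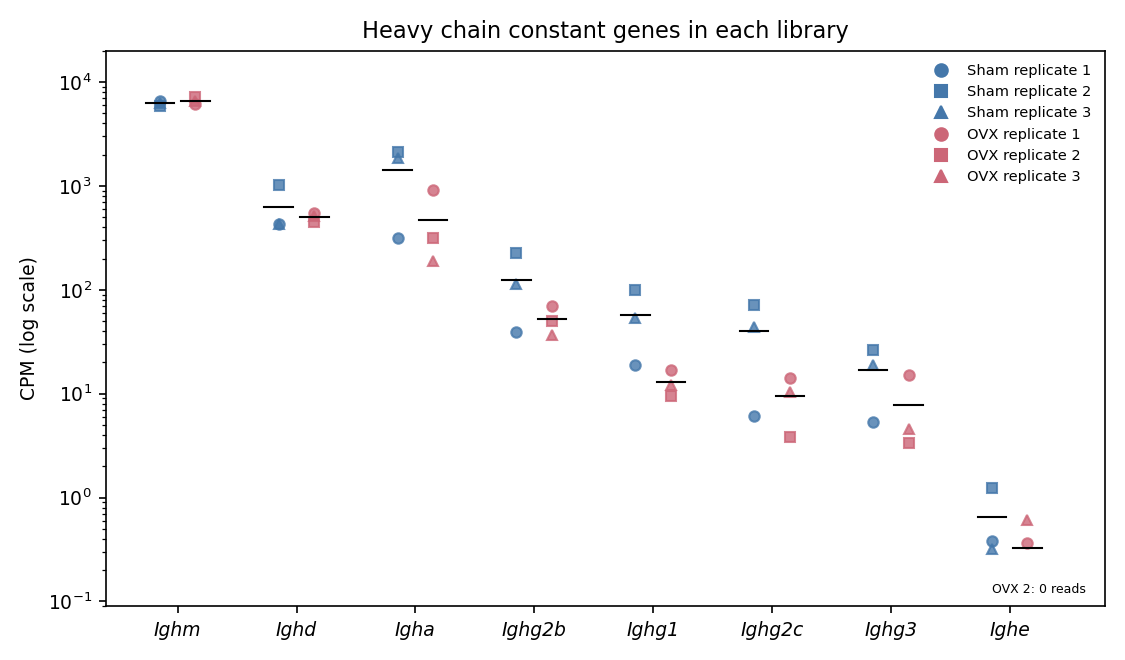
CPM of each heavy chain constant gene on a log scale, with a point for each library and a black bar at the mean of each group. Ighm lies within a 1.21-fold range in all libraries, whereas Igha spans 11.1-fold and Ighg2c 18.5-fold, and Ighe had 0 reads in OVX replicate 2.

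Among the IgG genes, Ighg2b had the most reads. It had 919, 6368 and 2816 counts in Sham and 1708, 1403 and 1210 in OVX. OVX replicates 1 and 2 were above Sham replicate 1, and the groups overlapped. The level was 125 ± 93.4 CPM in Sham and 51.9 ± 16.6 CPM in OVX, giving a log2 fold change of -1.28 (SE 0.563, unadjusted p = 0.0563, adjusted p = 0.811 with edgeR). It was -0.56 without Sham replicate 2.

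Ighg1 was the member whose groups did not overlap. Its counts were 451, 2813 and 1333 in Sham and 417, 271 and 404 in OVX. In CPM these were 19.0, 99.1 and 53.6 in Sham and 17.0, 9.56 and 12.2 in OVX, so that Sham replicate 1 was only just above OVX replicate 1. The log2 fold change was -2.15 (SE 0.547, unadjusted p = 0.00524, adjusted p = 0.811 with edgeR). An exact permutation test over libraries gave p = 0.1, the smallest that 3 libraries against 3 allow. It was 1 of 7 members with all OVX libraries below all Sham libraries, against 4.12% of all genes tested.

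Ighg2c and Ighg3 were rarer. Ighg2c, the IgG2 gene that C57BL/6 mice carry in place of Ighg2a, had 145, 2025 and 1086 counts in Sham and 351, 109 and 339 in OVX. Sham replicate 1 lay below OVX replicates 1 and 3. The level was 40.4 ± 32.7 CPM in Sham and 9.47 ± 5.27 CPM in OVX, giving a log2 fold change of -2.10 (SE 0.819, unadjusted p = 0.0364, adjusted p = 0.811 with edgeR). With an 18.5-fold range over libraries it varied more within groups than 99.7% of the genes tested. Ighg3, an isotype associated with T cell-independent responses, had 126, 741 and 473 counts in Sham and 374, 94 and 152 in OVX. OVX replicate 1 came next to the high Sham libraries, and the groups overlapped. Its level was 16.8 ± 10.6 CPM in Sham and 7.72 ± 6.54 CPM in OVX, giving a log2 fold change of -1.13 (SE 0.708, adjusted p = 0.811 with edgeR).

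Ighe was at the edge of detection. It had 9, 35 and 8 counts in Sham and 9, 0 and 20 in OVX. The absence of reads in OVX replicate 2 allows a level of up to 0.104 CPM before TMM scaling (3 counts of that library), a limit that covers counting error only. Ighe was under the filter on low counts and was not tested in the main fit.

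In the comparison of OVX with Sham, no member passed an adjusted p of 0.05, and neither did any other gene (0% of the 15305 tested, lowest adjusted p = 0.811 with edgeR). Unadjusted p-values fell below 0.05 for 574 of 15305 genes with edgeR and for 755 of 27412 with DESeq2, which also called 0. Of the 7 members tested, 6 had a log2 fold change below 0, against 51.8% of all genes, and their median was -1.28, against -0.01 over all genes. Without Sham replicate 2 the median of these 7 was -0.67 with 5 of 7 below 0, and without OVX replicate 1 it was -2.08. Ighg1 and Ighg2c were the 2 members with an unadjusted p-value under 0.05 in the lower direction, a class that held 2.28% of all genes tested. Without the filter on low counts Igha and Ighg2b joined them (4 of 8, as Ighe entered this fit), against 905 of 27416 genes in that class. With limma-voom Ighg1 alone remained, against 350 of 15305 genes. Without Sham replicate 1 the number was 5 of 8 (Igha, Ighg2b and Ighg3 as well, with Ighe also tested), against 1444 of 16051 genes. Without OVX replicate 1 it was 4 of 8 (Igha and Ighg3 as well, with Ighe also tested), against 691 of 15977 genes. Without any of the other 4 libraries Ighg1 was the only member left. With each of the 6 libraries left out in turn, the unadjusted p-value of Ighg1 stayed under 0.05, and its adjusted p-value never did.

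**Figure D2:**
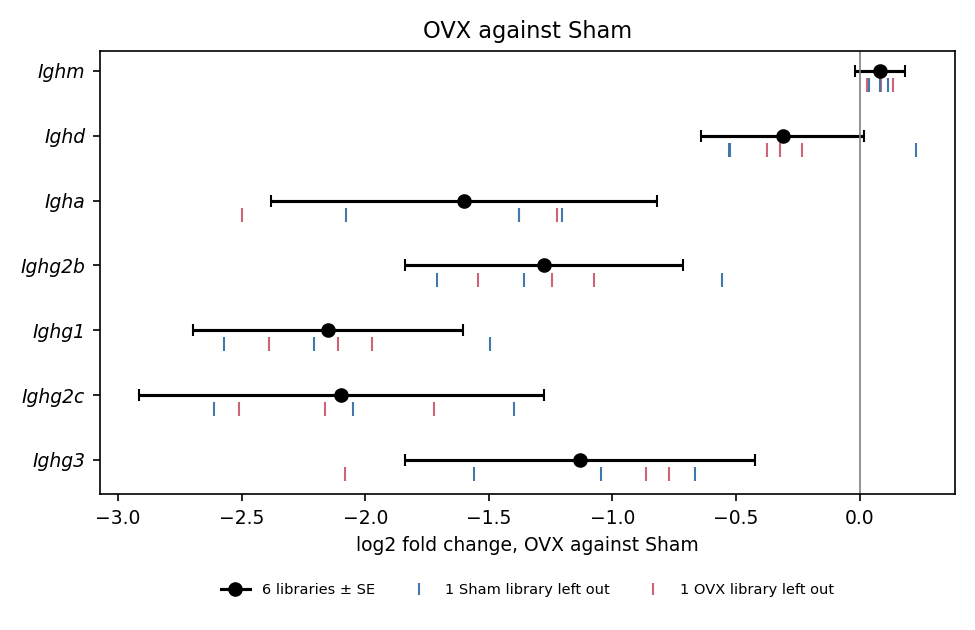
Log2 fold change of OVX against Sham for the 7 members tested, with bars of 1 standard error, and ticks at the value when a Sham library (blue) or an OVX library (red) was left out. Ighm lies at 0.08, the 5 switched genes lie between -2.15 and -1.13, and the value of Ighd goes to 0.23 when Sham replicate 2 is left out.

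The make-up of heavy chain reads within a library needs no scaling between libraries. Reads on Ighm or Ighd made up 94.8%, 73.1% and 76.5% of the reads on the 8 genes in Sham and 86.7%, 95.2% and 96.5% in OVX. Unswitched isotypes thus dominated everywhere, and Sham replicate 1 lay in the range of OVX. The 95% Wilson interval of each such share reached at most 0.189 percentage points to either side, which covers counting error only and was far smaller than the spread between libraries. The difference between the means was 11.4 percentage points (OVX minus Sham, exact permutation test, p = 0.2).

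Igha took 4.29%, 22.4% and 20.9% of heavy chain reads in Sham and 11.8%, 3.95% and 2.58% in OVX. The IgG genes together took 0.940%, 4.47% and 2.59% in Sham and 1.50%, 0.834% and 0.864% in OVX. Both shares were highest in Sham replicates 2 and 3 and overlapped between groups. The difference was -9.78 percentage points for Igha and -1.60 for IgG (exact permutation test, p = 0.2 for each). Over all 16 comparisons of shares and ratios the lowest adjusted p-value was 0.356 (exact permutation tests with Benjamini-Hochberg adjustment).

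The composition of the IgG reads was examined after the levels had been seen. Ighg1 made up 27.5%, 23.5% and 23.4% of IgG reads in Sham and 14.6%, 14.4% and 19.2% in OVX. This was lower in every OVX library than in any Sham library, Sham replicate 1 included (difference -8.71 percentage points, exact permutation test, p = 0.1, adjusted p = 0.356). Ighg2b made up 56.0%, 53.3% and 49.3% in Sham and 59.9%, 74.7% and 57.5% in OVX, higher in every OVX library (difference 11.2 percentage points, p = 0.1 by the exact permutation test, adjusted p = 0.356). The shares of Ighg2c, from 5.81% to 19.0%, and of Ighg3, from 5.01% to 13.1%, overlapped between groups. As these shares sum to 100%, they are not independent of each other.

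**Figure D3:**
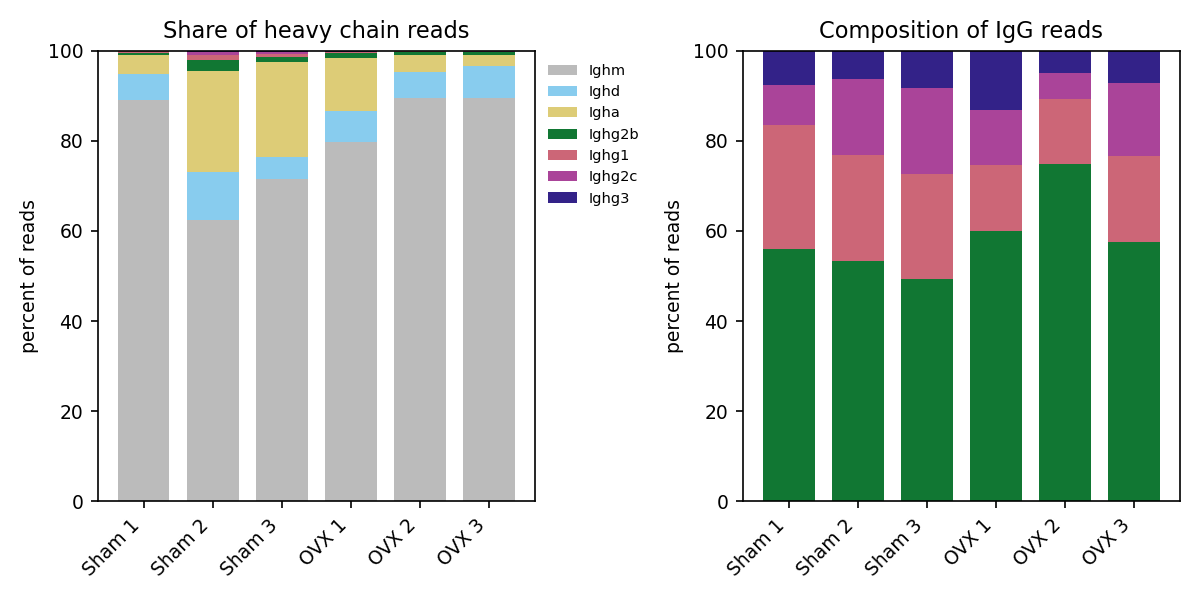
Stacked bars of the percent of heavy chain reads on each constant gene (left) and of the percent of IgG reads on each IgG gene (right), a bar for each library. Igha takes 22.4% and 20.9% in Sham replicates 2 and 3 and at most 11.8% elsewhere, and Ighg1 takes 23.4% to 27.5% of IgG reads in Sham and 14.4% to 19.2% in OVX.

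The order of the isotypes by reads was nearly the same in all libraries. Lengths of the mature transcripts were not used here, so this order is by counts and is not corrected for length. Ighm had rank 1, Ighg2b rank 4, Ighg1 rank 5 and Ighe rank 8 in each of the 6 libraries. Ighm exceeded Igha by 10.1 times (geometric mean over libraries, here and for the next pairs), with a range from 2.78 to 34.7 times. Igha and Ighd changed places, with Igha higher in 3 of 6 libraries (Sham replicates 2 and 3 and OVX replicate 1) and a mean log2 ratio of 0.25 (exact sign-flip permutation test over libraries, p = 0.656, adjusted p = 0.656). Ighd exceeded Ighg2b by 7.57 times, Ighg2b exceeded Ighg1 by 2.92 times and Ighg1 exceeded Ighg2c by 1.63 times, each in 6 of 6 libraries. These and the other pairs of neighbours that kept their order in all libraries had p = 0.0313, the smallest that 6 libraries give in the exact sign-flip test, and an adjusted p of 0.0438 over 7 pairs. The pairs were set by the summed counts of these same libraries, with Sham and OVX pooled. A ratio in favour of the first gene was thus likely beforehand, and these p-values give the order no independent support. Ighg2c exceeded Ighg3 in 5 of 6 libraries, by 1.61 times (exact sign-flip test, adjusted p = 0.0729), and OVX replicate 1 was the exception.

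The genes whose levels followed each member most closely over the 6 libraries were sought among 10384 genes with a mean of at least 5 CPM. The measure was the root mean square difference of log2 CPM, each gene centred on its own mean, and is a description over 6 libraries that share depth and cell composition. For Ighd the nearest gene was Zfp318, which encodes a nuclear protein needed for the long transcript to read through into Ighd, at a difference of 0.06. Zfp318 had 84.5, 198 and 94.2 CPM in Sham and 108, 88.5 and 108 CPM in OVX. The number of Ighd counts per Zfp318 count stayed between 4.59 and 5.11 in all libraries, a range of 1.11-fold, although Ighd itself varied 2.38-fold. H2-Ab1 and H2-Aa, which encode the chains of an MHC class II molecule, followed at 0.06 and 0.07.

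For Igha the nearest gene was Jchain, which encodes the joining chain that links IgA and IgM into polymers, at a difference of 0.16. Jchain had 112, 641 and 516 CPM in Sham and 257, 105 and 71.3 CPM in OVX, in the same order of libraries as Igha. There were between 2.67 and 3.59 Igha counts per Jchain count, a range of 1.35-fold against 11.1-fold for Igha. The variable segment Ighv11-2 came next at 0.39, and Ighg3 at 0.44.

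**Figure D4:**
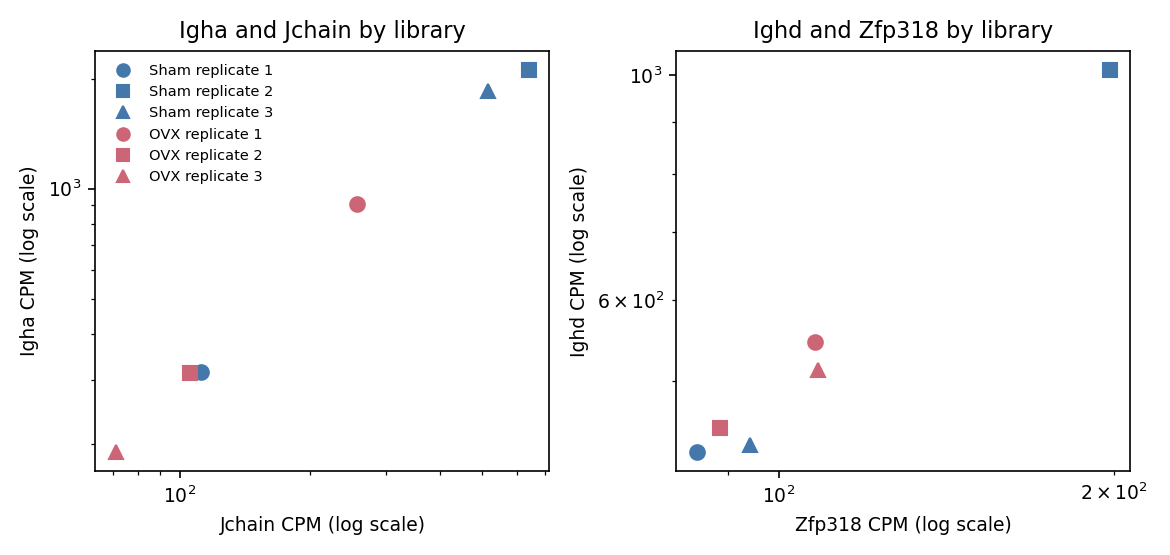
CPM of Igha against Jchain (left) and of Ighd against Zfp318 (right), both axes on log scales, a point for each library. The points follow Jchain from 71.3 to 641 CPM, and Sham replicate 2 stands alone for Ighd at 1012 CPM beside 198 CPM of Zfp318.

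Ighg2b and Ighg1 had the same nearest gene, the kappa variable segment Igkv10-94, at 0.14 and 0.48. Alcam, which encodes an adhesion molecule, and Ly6a, which encodes the surface protein Sca-1, came next for Ighg2b at 0.29 and 0.30, and Ighg2b and Jchain came next for Ighg1 at 0.51 and 0.52. Ighg3 and Ighg2c also shared their nearest gene, Myl10, at 0.23 and 0.50. Chst10 and Enpep followed for Ighg3 at 0.25 and 0.31, and Il9r and Ighg1 for Ighg2c at 0.55 and 0.55. The nearest genes of Ighm, Fam114a2, Colgalt1 and Rspry1, all lay at 0.02, as is easily reached by genes that vary little. Between members, Igha and Ighg3 were the closest pair at 0.44, and Ighm and Ighg2c the most distant at 1.56.

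The heavy chain reaches the surface with light chains and with the signalling chains CD79A and CD79B, while precursor cells pair it with a surrogate light chain. Of the 11 genes of this group, 11 were tested and 0 passed an unadjusted p-value of 0.05, with a median log2 fold change of 0.04 (-0.01 over all genes). Cd79a stayed between 1548 and 1883 CPM, with 3.51 to 4.09 Ighm counts per Cd79a count. The kappa constant gene Igkc had 26.7, 52.8 and 40.8 counts per 100 Ighm counts in Sham and 33.9, 29.6 and 28.6 in OVX, and its log2 fold change was -0.29 (SE 0.195, adjusted p = 0.811 with edgeR). The log2 fold change was -1.55 for Jchain (SE 0.684, unadjusted p = 0.0563, adjusted p = 0.811 with edgeR) and 0.41 for Vpreb3, a gene of the precursor B cell receptor complex (SE 0.222, adjusted p = 0.811 with edgeR).

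Class switching needs DNA breaks in the switch regions and their repair by end joining. Of 19 genes of class switching and end joining, 18 had an identifier and were tested, Shld3 being the exception, and 0 had an unadjusted p-value under 0.05. Their median log2 fold change was 0.04. The lowest p-values were those of Msh6, a mismatch repair gene, at a log2 fold change of 0.17 (unadjusted p = 0.107, edgeR) and of Lig4, the ligase of end joining, at 0.27 (unadjusted p = 0.122, edgeR). The most abundant were H2ax, whose histone marks DNA breaks, at 339 CPM in Sham and 425 in OVX, and Xrcc6, the Ku70 gene of end joining, at 315 and 385 CPM.

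Of 17 receptors and factors that direct switching, 16 were tested and 0 had an unadjusted p-value under 0.05. In OVX 12 were lower and 4 higher, against 51.8% of all genes lower, with a median log2 fold change of -0.12. Without Sham replicate 2, 8 were lower and 8 higher, with a median of -0.006. Runx3, a factor of switching to IgA downstream of TGF-β, had a log2 fold change of -0.25 (SE 0.106, unadjusted p = 0.0527, edgeR), and Id2, an inhibitor of E proteins, of -0.46 (SE 0.291, unadjusted p = 0.154, edgeR). Tgfbr2, the receptor that receives TGF-β, was at 244 CPM in Sham and 253 in OVX, and Stat6, which carries the IL-4 signal to Ighg1 and Ighe, at 227 and 221 CPM. The groups overlapped for Runx3, Id2, Tgfbr2 and Stat6.

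Among 12 genes of heavy chain transcription and RNA processing, 1 had an unadjusted p-value under 0.05, in the higher direction, a class that held 1.47% of all genes. This was Ebf1, a factor of early B cell identity, with 521, 382 and 454 CPM in Sham and 550, 588 and 595 CPM in OVX. All OVX libraries were above all Sham libraries, as for 4.33% of all genes tested, and the log2 fold change was 0.35 (SE 0.116, unadjusted p = 0.0181, adjusted p = 0.811 with edgeR). It was 0.21 for Yy1, whose protein binds heavy chain enhancers (unadjusted p = 0.0532, edgeR), 0.02 for Pax5 and 0.30 for Tcf3, both factors of B cell identity, and -0.31 for Zfp318. The median of the list was 0.03. With OVX replicate 2 or OVX replicate 3 left out, 0 of the 12 had an unadjusted p-value under 0.05, Ebf1 included.

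All 7 genes for receptors of antibody isotypes had a log2 fold change below 0, against 51.8% of all genes, and 0 had an unadjusted p-value under 0.05. Their median was -0.29. Without Sham replicate 2 only 3 of 7 were below 0 and the median was 0.00, with Fcer2a, Fcmr, Fcamr and Fcgrt between 0.00 and 0.24. The lowest value was that of Pigr, the transporter of polymeric IgA and IgM across epithelia, at -0.76 (SE 0.435) and only 1.57 CPM in Sham and 0.933 in OVX. Fcer2a, the low-affinity IgE receptor CD23 of mature B cells, had 136, 433 and 189 CPM in Sham and 200, 131 and 170 CPM in OVX, giving a log2 fold change of -0.60 (SE 0.404). Fcmr, the IgM receptor gene, was on average the most abundant of the 7, at 414 CPM in Sham replicate 2 and 245 to 281 CPM elsewhere. For both, Sham replicate 2 was the highest library, as for Ighd.

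Markers of other cell states and cell types moved with some members. The 12 markers of mature B cells took 0.401% of the counts in Sham replicate 2 and 0.236% to 0.267% in the other libraries, with no marker at 0 in any library, and the 12 markers of pro-B and pre-B cells took 0.197% in Sham replicate 2 and 0.252% to 0.375% elsewhere. By summed share Sham replicate 2 was thus the highest for mature markers and the lowest for precursor markers, and it was the library with the most Ighd. Not every single marker followed this. Dntt, Vpreb1, Igll1 and Erg were lowest in Sham replicate 3, and Vpreb2 was highest in Sham replicate 2. Of the mature markers, Klf2, Cd38 and Ms4a1 were highest in an OVX library. The part of these differences in the Ighd result was not tested.

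The 12 plasma cell markers together took 0.172% to 0.210% of the counts in Sham and 0.158% to 0.184% in OVX. Prdm1, the gene of the factor BLIMP-1 that drives plasma cell formation, had 3.42, 9.48 and 6.60 CPM in Sham and 3.50, 3.85 and 2.88 CPM in OVX, giving a log2 fold change of -0.93 (unadjusted p = 0.0354, adjusted p = 0.811 with edgeR). Tnfrsf17, which encodes the plasma cell survival receptor BCMA, had 0.422, 1.13 and 0.603 CPM in Sham and 0.326, 0.388 and 0.151 CPM in OVX, giving a log2 fold change of -1.33 (unadjusted p = 0.0413, adjusted p = 0.811 with edgeR). These were the 2 of 12 with an unadjusted p-value under 0.05, both in the lower direction (2.28% of all genes tested). With Sham replicate 2, Sham replicate 3 or OVX replicate 3 left out, the number was 0 of 12. With OVX replicate 1 or OVX replicate 2 left out, it was 1 of 12. With Sham replicate 1 left out, 6 were in the lower and 3 in the higher direction, against 1444 and 1254 of 16051 genes. Of the 12 markers 7 had a log2 fold change below 0 and 5 above, with a median of -0.23. Prdm1 and Tnfrsf17 were highest in Sham replicates 2 and 3, as were Jchain and Igha, while Irf4, Mzb1, Sec11c and Slamf7 had log2 fold changes between 0.06 and 0.20. Sdc1, the gene of the plasma cell marker CD138, was lowest in Sham replicate 2, at 51.4 CPM, and highest in OVX replicate 2.

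The 13 neutrophil markers took 0.251%, 0.344% and 0.935% of the counts in Sham and 0.405%, 0.110% and 0.118% in OVX, with none at 0. The libraries with the most neutrophil reads, Sham replicates 2 and 3 and OVX replicate 1, were also those with the most Igha, Ighg2b, Ighg2c and Ighg3, although in another order. The log2 fold change was below 0 for all 13, and its median was -1.26. The 6 basophil and mast cell markers took 0.00203% to 0.00640% in Sham and 0.000846% to 0.00299% in OVX, with values below 0 for 6 of 6 and with Sham replicate 3 the highest. Monocyte and macrophage markers (10 genes) took 0.123% to 0.243% of the counts in Sham and 0.0685% to 0.181% in OVX, erythroid markers (9 genes) 0.0278% to 0.0553% and 0.0189% to 0.0343%, T and NK cell markers (9 genes) 0.00218% to 0.00476% and 0.00151% to 0.00389%, and stromal markers (7 genes) 0.00269% to 0.00313% and 0.00241% to 0.00675%, with none at 0 in a library. The highest T and NK cell share in OVX, that of OVX replicate 3, came mostly from 1081 counts of Cd4. In that library Cd3d, Cd3e, Cd3g, Cd8a and Trac had 14, 3, 7, 12 and 7 counts. The log2 fold change was below 0 for 10 of 10 monocyte and macrophage markers (median -0.34), 9 of 9 erythroid markers (median -0.62) and 8 of 9 T and NK cell markers (median -1.34), and for 2 of 7 stromal markers (median 0.44). Without Sham replicate 2 it was below 0 for 2 of 10 monocyte and macrophage markers, with a median of 0.30, and still for 13 of 13 neutrophil markers. With Sham replicate 3 left out, the neutrophil median was -0.48, again with 13 of 13 below 0. In that fit the median was -0.72 for basophil and mast cell markers and -0.67 for T and NK cell markers. For monocyte and macrophage markers it was -0.63. The part of these cells in the values of the switched isotypes was not tested.

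**Figure D5:**
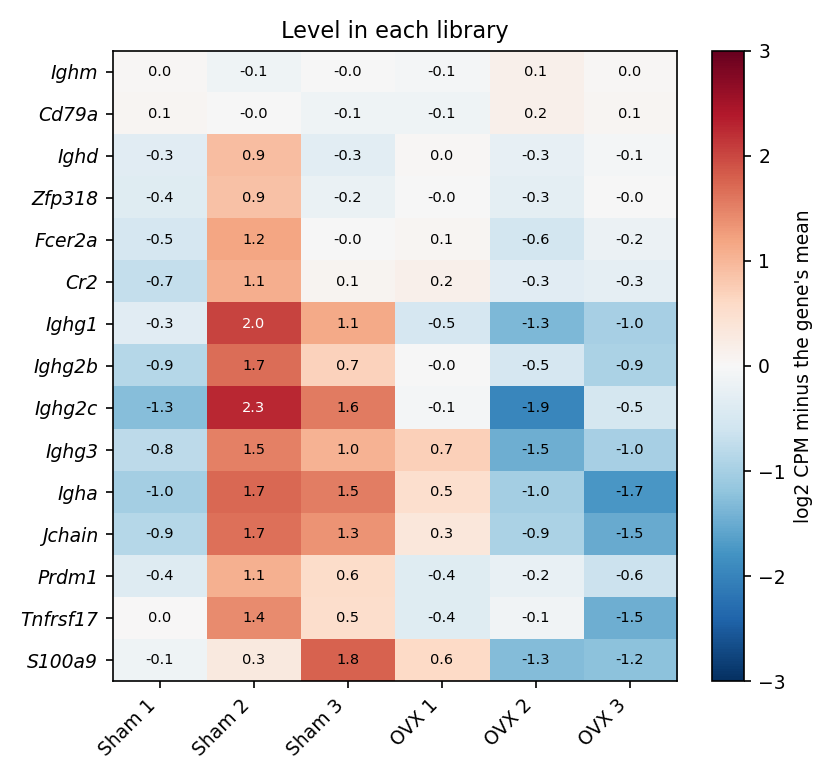
Log2 CPM of each gene in each library minus the gene's mean over the 6 libraries, for members and for genes named beside them. Sham replicate 2 stands out for Ighd, Zfp318, Fcer2a and Cr2, and Igha, the IgG genes and Jchain are highest in Sham replicates 2 and 3.

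The 8 members together took 0.732% to 0.963% of all counts, and all 395 immunoglobulin genes in the table took 1.28% to 1.85%. Both totals were highest in Sham replicate 2. The members made up 52.2% to 57.4% of all immunoglobulin reads, and the rest included light chain constant genes and variable segments.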

How the data were processed

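Bone marrow B cells of sham-operated and OVX mice were compared in 3 RNA-seq libraries per group. The table the authors deposited holds raw read counts for Ensembl genes, not normalized. Their processing notes name CASAVA, Bowtie 0.12.2 and mm10 with no role. The counting tool, the annotation and the use of strand are not given in the sources used here. Symbols were matched to 54409 of 54532 identifiers.

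The fit used edgeR 4.0.16 under R 4.3.3 (filterByExpr by group, TMM, quasi-likelihood test without a block, Benjamini-Hochberg adjustment over 15305 genes). Genes were called at an adjusted p-value under 0.05. Shares and ratios were compared by two-sided exact permutation tests, and neighbouring isotypes by exact sign-flip tests (scipy 1.17.1), with 0.5 counts added where Ighe was at 0. For nearest genes 0.05 CPM was added before log2. Alternatives were DESeq2 1.42.0, limma 3.58.1 (voom), other scalings, no filter, the replicate number as a block, and each library left out in turn. Reading the marker and pathway lists with a library left out was added after seeing the data. Libraries ranged from 23838775 to 33136701 counts, and reads without molecular identifiers are not independent molecules, so intervals and limits cover counting error only.

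The named genes are all members, in each pathway list the 2 with the lowest p-value and the 2 with the highest level, with Jchain, Igkc and Zfp318 in any case, and the 3 nearest genes of each member. Genes named outside this rule, with their values known, were Prdm1, Tnfrsf17, Sdc1, Irf4, Mzb1, Sec11c, Slamf7, Fcamr and Fcgrt. Further ones were Dntt, Vpreb1, Vpreb2, Igll1, Erg, Klf2, Cd38, Ms4a1, Cd4, Cd3d, Cd3e, Cd3g, Cd8a and Trac. The same holds for Cr2 and S100a9 in a picture. Members and lists were chosen with earlier results of these data known. Levels per gene length were planned and not computed, as exon lengths were not used here, and gene positions are from RefSeq's GRCm38.p6, the build of mm10. Sequences of the constant genes were not used here. 1 gene that the rule also names is not reported here. The tests were tried on simulated data.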

Additional observations from a re-analysis of the deposited data

How the results depend on the processing

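Under 13 alternatives the 7 members gave 91 fold changes, of which 90 kept their direction and 1 was reversed, and 0 were called (adjusted p-values from 0.273 to 1.00, edgeR, limma-voom or DESeq2). The value that turned was Ighd without Sham replicate 2, with a log2 fold change of 0.23 and a range of -0.53 to 0.23 over the libraries left out. The log2 ratio of Ighd to Ighm ranged from -0.52 to 0.19 and turned with the same library, at 0.19. Within OVX alone the log2 ratio of Igha over Ighd was -0.40, against 0.91 in Sham.

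With a library left out, the log2 fold change ranged from -2.50 to -1.21 for Igha, from -2.57 to -1.50 for Ighg1, from -1.71 to -0.56 for Ighg2b, from -2.61 to -1.40 for Ighg2c, from -2.08 (without OVX replicate 1) to -0.67 (without Sham replicate 2) for Ighg3, and from 0.03 to 0.13 for Ighm. The share of Igha differed by -15.6 (without Sham replicate 1) to -6.51 percentage points, that of IgG by -2.46 to -0.70, and that of Ighm or Ighd by 7.21 to 18.1. Genes with an unadjusted p-value under 0.05 numbered 574 of 15305 tested. They numbered 2698 of 16051 without Sham replicate 1, 1269 of 27416 without the filter on low counts and 233 of 15737 without OVX replicate 2, with 0 called each time.

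Libraries of equal replicate number did not resemble each other: their deviations from the group means correlated at -0.41, -0.19 and -0.28 over genes. With 3 libraries per group this cannot decide whether equal numbers shared a preparation, and the labels do not say. With the replicate block 206 genes had an unadjusted p-value under 0.05, Ighg1 alone among the members, and 0 were called. Fold changes of the scarcer isotypes are limited by the spread between libraries rather than by counting. The cause of these differences was not tested.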
